A study of Mus musculus with 4 samples.

Results

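The genes described here are 43 genes of glycolysis and of the tricarboxylic acid (TCA) cycle, measured in basal cells from the tips and from the ducts of the mouse prostate. They were chosen by symbol, 22 for glucose uptake, glycolysis and lactate handling and 21 for pyruvate entry into the mitochondrion and the cycle. The 21 include the cytosolic malate dehydrogenase gene Mdh1. Each symbol matched exactly 1 row of a table of 49671 genes. All 43 passed the filter on low values, a mean of at least 1 CPM (reads of the gene per 1000000 reads of a library), and all 43 averaged at least 5 CPM.

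The study collected the ventral lobes of 20 mice and cut them into tips, the distal ends of the growing gland, and ducts. Cells carrying CD45, CD31 or CD140a, which mark blood cells, endothelium and stromal cells, were excluded in the sort, and basal cells were taken as high for EpCAM and CD49f. The tip group and the duct group have 2 libraries each, called tip 1, tip 2, duct 1 and duct 2 (the tips and the ducts), with values always given in that order, and both groups come from the same lobe and the same sort. Neither group has a treatment in the labels, and no strain or genotype is named in them. The groups follow the titles, since the field for cell type reads tip for each of the 4. The titles place the mice at postnatal day 13 and the age field at days 10 to 12. Separate animals are not named for the libraries within a group, so every p-value measures the spread between these libraries, which may be technical.

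Glycolysis breaks glucose down to pyruvate in the cytosol, and lactate dehydrogenase can turn that pyruvate into lactate, which monocarboxylate transporters carry out of the cell. Alternatively, the pyruvate dehydrogenase complex turns pyruvate into acetyl-CoA inside the mitochondrion, and citrate synthase passes it into the TCA cycle, whose dehydrogenases feed electrons to the respiratory chain. Prostate epithelium is known for its unusual citrate metabolism, since the secretory luminal cells of the adult gland release citrate rather than oxidise it.

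The libraries were shallow, with 1439004 to 1742531 reads recovered from the deposited values, so 1 read was worth 0.574 to 0.695 CPM. A member had between 4 and 567 reads in a library. All 9 basal markers listed, among them Krt5, Krt14 and Trp63, had reads in each library, and their summed level was 10294 and 9585 CPM in the tips and 14442 and 5773 CPM in the ducts. The duct libraries lay at opposite ends, duct 1 with the highest basal sum and the lowest fibroblast sum. Duct 2 lay at the other end. It held the lowest basal sum, the highest sum of 12 fibroblast markers (21259 CPM, against 5956 in tip 1, 12116 in tip 2 and 2967 in duct 1) and transcripts of the islet hormones Ins2 (205 CPM), Ins1 (56.7 CPM) and Iapp (67.2 CPM), which were at 0 in the other libraries (a count of 0 allows up to 1.72 to 2.08 CPM there, for counting error only). Endothelial markers summed to 92.6 and 95.4 CPM in the tips and 36.0 and 290 CPM in the ducts, and immune markers to 205, 107, 92.0 and 112 CPM. Luminal markers summed to 923 and 1130 CPM in the tips and 2090 and 834 CPM in the ducts. Smooth muscle markers summed to 1452 and 2466 CPM in the tips and 377 and 2230 CPM in the ducts. None of these sums separated the tip libraries from the duct libraries. The part of other cell types in the results below was not tested, and in bulk RNA fewer cells of a type and less RNA per cell cannot be told apart.

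**Figure D1:**
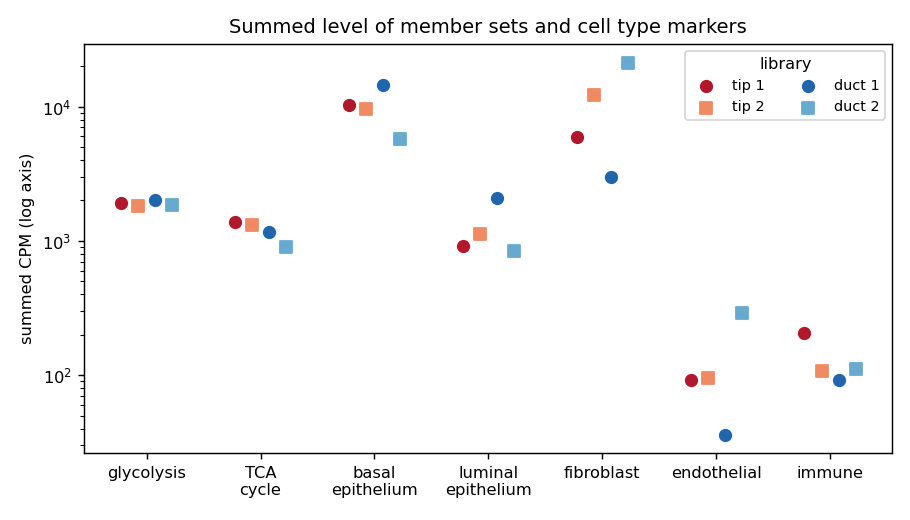
Summed CPM (log axis) of the glycolysis set, the TCA cycle set and 5 lists of cell type markers in tip 1, tip 2, duct 1 and duct 2; each point is 1 library. The TCA sums of the tips (1391 and 1308) lie above those of the ducts (1162 and 906). The glycolysis sums overlap on this deposited scale, and the fibroblast sum is highest in duct 2 (21259).

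Across the 2 sets, the TCA genes sat higher in tip and the glycolysis genes were mixed. Both tip libraries lay above both duct libraries for 14 of the 21 TCA genes, and below them for 0. The same held for 7 and 5 of the 22 glycolysis genes. Over all 17865 genes tested, 28.5% lay above and 11.1% lay below in this way on the deposited scale. The share of glycolysis genes above (31.8%) was close to that of all genes, while the share below (22.7%) exceeded that of all genes. The 14 TCA genes above include Pdk1 and Pdk2, kinases that switch off the pyruvate dehydrogenase complex. Median log2 fold changes, tip minus duct, were 0.44 for the TCA genes, 0.18 for the glycolysis genes and 0.20 for all genes tested.

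None of these genes passed a test. limma called 0 of 17865 genes at an adjusted p of 0.05 (0% in either direction), and its smallest adjusted p, also the smallest of any member, was 0.667. At an unadjusted p of 0.05, 3 glycolysis genes and 4 TCA genes were higher in tip and 0 were lower, beside 5.82% of all genes higher and 1.61% lower. edgeR and voom on the recovered reads also called 0 genes. At the unadjusted level limma with TMM scaling, edgeR and voom each counted 2 glycolysis genes higher, 3 lower and 1 TCA gene higher. Beside these counts, the shares of all genes higher and lower were 3.19% and 3.02% with TMM, 2.99% and 2.93% in edgeR and 2.87% and 2.80% in voom. DESeq2 called 2 genes lower (0.0112% of all), neither of them a member. At the unadjusted level it counted 0 members, beside 0.666% of all genes higher and 1.66% lower. With 2 libraries a side, the smallest 2-sided p of an exact permutation test is 0.333.

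The scaling of the libraries moves these counts. The deposited values set each library to the same total, which leaves the median gene 0.20 higher in tip (log2), whereas TMM scaling, a trimmed mean over genes, leaves it at 0.03. With TMM, 10 TCA genes lay above and 1 below (background 20.4% and 18.0%), and 4 glycolysis genes lay above and 7 below. The median log2 fold was then 0.24 for the TCA genes and -0.01 for the glycolysis genes. With median-ratio scaling the counts were 9 above and 1 below for the TCA genes and 4 above and 8 below for glycolysis (background 19.1% and 19.3%).

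**Figure D2:**
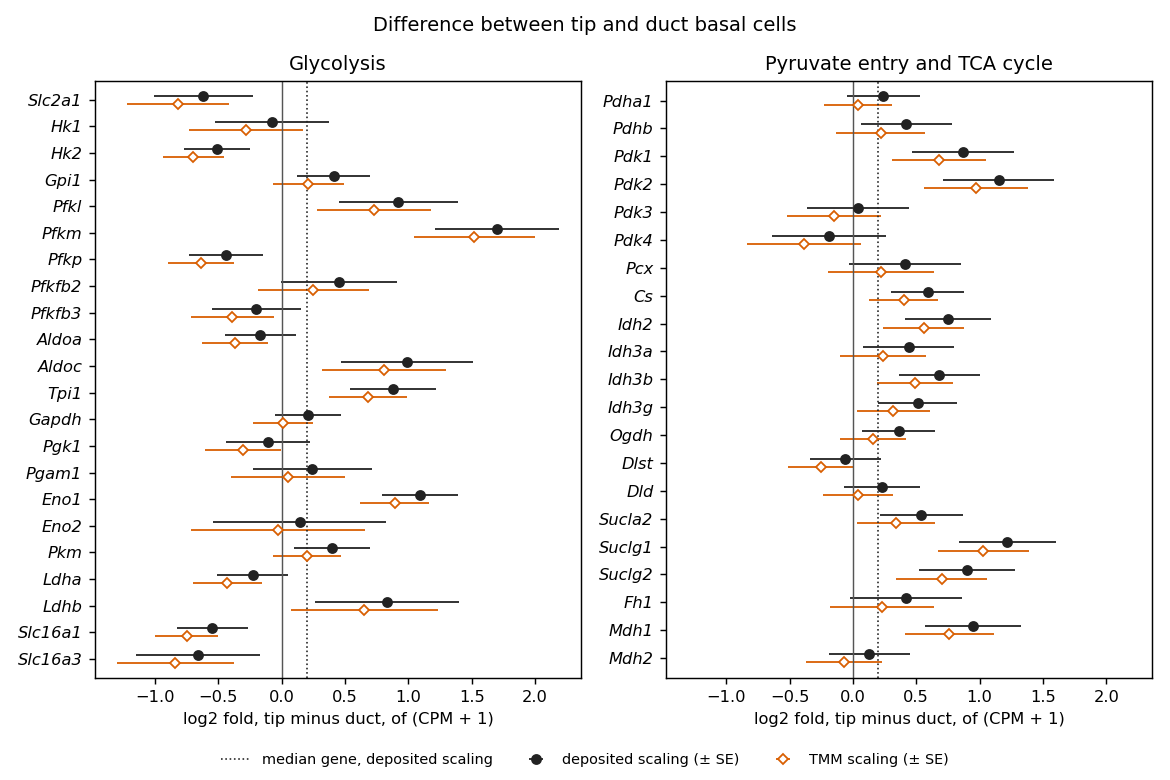
Log2 fold change, tip minus duct, of each gene with its standard error, under deposited scaling (filled circles) and TMM scaling (open diamonds); the dotted line is the median of all genes tested on the deposited scale (0.20). Of the TCA genes 19 of 21 are above 0 on the deposited scale and 17 with TMM, and of the glycolysis genes 12 and 11 of 22, beside 63.1% and 51.7% of all genes tested.

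Shares of reads within the 43 genes do not depend on how libraries are scaled. The TCA set took 42.1% of these reads in tip 1 (95% Wilson interval 40.7 to 43.5%), 41.8% in tip 2 (40.5 to 43.1%), 36.5% in duct 1 (35.2 to 37.9%) and 32.9% in duct 2 (31.5 to 34.3%). In summed CPM the TCA set was at 1391 and 1308 in the tips and 1162 and 906 in the ducts, and with TMM at 1249, 1269, 1218 and 993. The glycolysis set was at 1916, 1819, 2021 and 1848, which overlap. With TMM it was at 1720, 1764, 2118 and 2026, with both tips below both ducts. On that scale the TCA sum of duct 1 was near those of the tips, while its glycolysis sum was the highest. A lower TCA share in duct can thus reflect more glycolysis reads as well as fewer TCA reads. Both tips were above both ducts in the share, with no overlap of the intervals between groups, which cover counting error only. Leaving out the genes of pyruvate entry leaves the cycle enzymes, the cytosolic Mdh1 among them. They took 34.4% and 34.1% in tip and 28.0% and 25.8% in duct of the reads on cycle enzymes and glycolysis genes together. The nearest intervals of that share were 32.7 to 35.4% in tip 2 and 26.6 to 29.3% in duct 1. Genes of glucose uptake, glucose phosphorylation and lactate handling took 34.8% and 40.5% of glycolysis reads in tip and 49.2% and 50.7% in duct (38.8 to 42.2% in tip 2 and 47.4 to 50.9% in duct 1). These genes were grouped together after their values were seen, so the share describes that choice. Of these 7 genes 4 were lower in both tips, while Slc2a1 and Hk1 overlapped and Ldhb had a positive log2 fold (0.83).

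Promoter sequences are shown for 3 genes lower in both tips (Hk2, Slc16a1, Ldha) and 3 higher in both tips (Eno1, Cs, Suclg2), so that the letters upstream of both kinds can be read side by side. They were picked after the values were seen, from windows that overlap 0 bases of an annotated exon. Each line gives the 250 bases before a RefSeq transcript start on GRCm38.p6, 5′ to 3′ on the gene's strand, and capitals mark ACGTG or GCGTG on either strand, the core letters bound by hypoxia-inducible factors (HIF), known regulators of glycolysis genes.
Hk2 chr6:82774455-82774704 (-): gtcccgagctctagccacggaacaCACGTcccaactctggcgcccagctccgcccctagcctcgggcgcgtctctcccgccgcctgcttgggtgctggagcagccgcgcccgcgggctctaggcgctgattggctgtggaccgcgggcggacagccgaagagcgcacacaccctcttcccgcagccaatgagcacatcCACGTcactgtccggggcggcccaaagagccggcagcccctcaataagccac
Slc16a1 chr3:104638414-104638663 (+): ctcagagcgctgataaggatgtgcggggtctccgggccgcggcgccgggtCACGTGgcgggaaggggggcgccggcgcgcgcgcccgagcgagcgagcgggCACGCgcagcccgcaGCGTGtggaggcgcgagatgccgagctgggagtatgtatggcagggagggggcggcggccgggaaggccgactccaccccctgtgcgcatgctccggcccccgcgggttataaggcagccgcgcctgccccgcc
Ldha chr7:46845554-46845803 (+): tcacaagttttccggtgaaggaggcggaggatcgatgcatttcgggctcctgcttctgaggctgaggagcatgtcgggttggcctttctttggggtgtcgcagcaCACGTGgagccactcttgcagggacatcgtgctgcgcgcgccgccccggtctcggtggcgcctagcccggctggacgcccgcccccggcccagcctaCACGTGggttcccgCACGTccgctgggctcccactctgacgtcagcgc
Eno1 chr4:150236458-150236707 (+): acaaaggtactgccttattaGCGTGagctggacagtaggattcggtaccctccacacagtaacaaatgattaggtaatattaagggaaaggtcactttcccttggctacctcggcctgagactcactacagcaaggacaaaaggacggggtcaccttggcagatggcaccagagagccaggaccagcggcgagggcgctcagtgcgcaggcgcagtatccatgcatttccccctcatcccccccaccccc
Cs chr10:128337477-128337726 (+): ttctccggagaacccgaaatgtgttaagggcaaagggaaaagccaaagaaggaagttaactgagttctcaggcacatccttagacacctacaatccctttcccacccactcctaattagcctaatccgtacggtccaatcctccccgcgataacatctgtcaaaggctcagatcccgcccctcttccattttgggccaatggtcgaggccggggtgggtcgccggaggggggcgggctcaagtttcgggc
Suclg2 chr6:95718847-95719096 (-): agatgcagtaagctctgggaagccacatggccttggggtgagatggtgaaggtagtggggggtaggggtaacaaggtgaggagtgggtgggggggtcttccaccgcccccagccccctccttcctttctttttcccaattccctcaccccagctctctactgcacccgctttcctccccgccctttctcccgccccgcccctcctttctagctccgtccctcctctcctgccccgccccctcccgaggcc

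In the printed windows Hk2 had 2 matches, Slc16a1 4, Ldha 5 and Eno1 1, and Cs and Suclg2 had 0. These 6 windows do not stand for the 2 sides. Other windows of Eno1, which overlap exons, had 2 matches each, and a second window of Ldha had 1. Among other genes higher in both tips, the windows of Pdha1 and Gapdh had 3 and 2 matches, the 3 matches of Suclg1 lay in a window that overlaps exons, and Pfkm and Pdk2 each had windows with 2 and with 0. At least 1 match stood in 24 of 34 windows of genes higher in both tips (70.6%), in 6 of 6 of genes lower in both, and in 18 of 24 of genes whose groups overlapped (75.0%). Matches that lie within CACGTG, the E-box bound by MYC and related factors, are counted on both strands, so 1 such site gives 2 matches. Of the 43 genes, 42 (all but Idh3a) had windows in the RefSeq table, 64 in all. The HIF core was present in 29 of 36 glycolysis windows (80.6%), in 19 of 28 TCA windows (67.9%) and in 38.6% of all 32851 windows. The members' windows were also richer in G and C, with medians of 60.4% and 60.0% against 52.4% over all windows. Other motifs were searched on both strands too. CACGTG stood in 13.9%, 17.9% and 6.02% in the same order. For the NRF1 motif the shares were 5.56%, 3.57% and 3.74%, for CCGGAAG (ETS factors) 2.78%, 3.57% and 6.91%, and for AAGGTCA (estrogen-related receptors) 2.78%, 0% and 4.08%. Windows of a gene can overlap, and a match is a description of letters and not of binding.

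For glucose uptake and phosphorylation, no gene was higher in tip. Slc2a1, which encodes the glucose transporter GLUT1, measured 132.1 and 222.7 CPM in the tips and 361.6 and 193.7 CPM in the ducts. The groups overlapped, since duct 2 lay below tip 2. Its log2 fold was -0.62 ± 0.39 (SE; limma adjusted p = 0.710). With median-ratio scaling both tips lay below both ducts. The fold turned on single libraries. It was -0.17 without duct 1 (limma adjusted p = 0.860), -0.25 without tip 1 (0.999) and -1.07 without duct 2 (0.0124), and without tip 2 its adjusted p was 0.821, in fits that assume that the lone library of a group varies as the other group does. Hk2, the inducible hexokinase that traps glucose in the cell by phosphorylating it, and whose promoter is among those printed, measured 193.9 and 203.8 CPM in the tips and 271.7 and 293.9 CPM in the ducts. Libraries of each group lay close together and the groups did not overlap under the deposited, TMM or median-ratio scaling, with a log2 fold of -0.51 ± 0.26 (limma adjusted p = 0.678). Hk1, the hexokinase most tissues express, measured 57.0 and 34.5 CPM in the tips and 31.9 and 69.2 CPM in the ducts, with both duct libraries outside the tip range. Hk2 supplied 77.3 to 89.5% of the hexokinase reads in the 4 libraries, and that share did not separate the groups.

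The middle of the pathway begins with glucose phosphate isomerase and phosphofructokinase, the committing step of glycolysis, which is encoded by a liver-type, a muscle-type and a platelet-type gene. Pfkm, the muscle type, measured 22.9 and 22.4 CPM in the tips and 4.50 and 8.60 CPM in the ducts. It had the largest log2 fold of the 43 genes on the deposited scale, 1.70 ± 0.49 (limma adjusted p = 0.667), from 72 reads in tip and 20 in duct. The ratio of those reads per library total was 3.49, with a 95% counting interval of 2.10 to 6.05. The log2 fold was 2.11 without duct 2, 1.3 without duct 1, 1.69 without tip 1 and 1.72 without tip 2. Pfkl, the liver type, measured 39.6 and 24.7 CPM in the tips and 23.0 and 11.2 CPM in the ducts, a log2 fold of 0.92 ± 0.47 (limma adjusted p = 0.677). Tip 2 and duct 1 were nearly level for Pfkl, and with TMM the groups overlapped. Pfkp, the platelet type, lay the other way, at 75.8 and 80.3 CPM in the tips and 114.8 and 98.8 CPM in the ducts (log2 fold -0.44 ± 0.29, limma adjusted p = 0.711). The groups of Pfkp stayed apart under the 3 scalings.

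Set against each other, these 3 genes divided the phosphofructokinase reads differently in the groups. Pfkm supplied 16.6% and 17.6% of them in tip and 3.14% and 7.22% in duct. For Pfkl the shares were 28.6% and 19.4% in tip and 16.1% and 9.44% in duct. Pfkp was the main form in each library but took 54.8% and 63.1% in tip against 80.7% and 83.3% in duct. All 3 shares separated the tip libraries from the duct libraries, on 180 to 223 reads per library. For Pfkl the 95% Wilson intervals overlapped between tip 2 (14.7 to 25.1%) and duct 1 (11.9 to 21.5%). The nearest intervals of Pfkm, 12.1 to 22.4% in tip 1 and 4.27 to 12.0% in duct 2, and of Pfkp, 56.5 to 69.1% in tip 2 and 75.0 to 85.4% in duct 1, did not.

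Gpi1, the isomerase, measured 98.7 and 118.2 CPM in the tips and 77.8 and 84.3 CPM in the ducts. The groups did not overlap on the deposited scale (log2 fold 0.41 ± 0.29, limma adjusted p = 0.727) and overlapped with TMM. The bifunctional enzymes Pfkfb2 and Pfkfb3 make and break down an activator of phosphofructokinase. Pfkfb2 measured 36.9 and 31.0 CPM in the tips and 37.6 and 15.8 CPM in the ducts, so the duct libraries spanned the tip range. Pfkfb3 measured 37.5 and 29.3 CPM in the tips and 35.1 and 41.5 CPM in the ducts, which overlap (log2 fold -0.20 ± 0.35, limma adjusted p = 0.911). With TMM (-0.39) and median-ratio scaling both tips of Pfkfb3 lay below both ducts.

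From aldolase to pyruvate kinase, 4 of 9 genes lay higher in both tips and 0 lower, and with TMM 3 and 1, beside 28.5% and 11.1% of all genes (20.4% and 18.0% with TMM). Eno1, which encodes the main enolase, measured 146.7 and 121.7 CPM in the tips and 71.5 and 54.0 CPM in the ducts. Its log2 fold of 1.09 ± 0.30 (limma adjusted p = 0.667) had the smallest p of the 43 genes, and the groups stayed apart with TMM (0.89). The log2 fold was 1.29 without duct 1, 0.89 without duct 2, 0.96 without tip 1 and 1.23 without tip 2. Eno1 also has near copies. Eno1b, whose transcript matches it over at least 200 bases at 95% identity or more, had 44 and 23 reads in tip and 20 and 18 in duct, and the pseudogene Gm4735 had 32, 18, 7 and 10. Together the copies held 22.49% of the reads of Eno1 and its copies, so its level is uncertain where reads were split among them. Eno3, the muscle enolase, had 9.75 and 13.8 CPM in the tips and 1.95 and 11.2 CPM in the ducts. Eno2, the neuronal enolase, measured 6.95 and 5.75 CPM in the tips and 2.60 and 11.2 CPM in the ducts. Both extremes of Eno2 were duct libraries. Summed neural and neuroendocrine markers were at 39.7 and 61.5 CPM in the tips and 17.9 and 202 CPM in the ducts, and their part in the level of Eno2 was not tested.

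Tpi1, triose phosphate isomerase, measured 66.0 and 50.0 CPM in the tips and 30.0 and 31.6 CPM in the ducts. The ducts were nearly level and both tips were above them, with a log2 fold of 0.88 ± 0.34 (limma adjusted p = 0.667). Aldoc, an aldolase best known from brain, was at 9.75 and 10.3 CPM in the tips and 4.50 and 4.65 CPM in the ducts, 0.99 ± 0.52 on the log2 scale (limma adjusted p = 0.682). It rested on 32 tip and 14 duct reads. Aldoa, the main aldolase, was at 125.1 and 107.3 CPM in the tips and 123.1 and 138.3 CPM in the ducts, where the groups overlapped (log2 fold -0.17 ± 0.28, limma adjusted p = 0.900). With TMM (-0.37) and with median-ratio scaling both tips of Aldoa lay below both ducts. Aldoc took 7.22% and 8.78% of aldolase reads in tip and 3.50% and 3.23% in duct, with intervals that overlapped between tip 1 (4.35 to 11.7%) and duct 1 (1.71 to 7.05%).

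Gapdh, the dehydrogenase that gives the first NADH of the pathway and a common reference gene, measured 273.9 and 263.4 CPM in the tips and 251.9 and 213.4 CPM in the ducts. The lower tip and the higher duct value were close, the log2 fold was 0.21 ± 0.26 (limma adjusted p = 0.861), and with TMM the groups overlapped at 0.01. Its annotated near copies held 12.67% of the reads of Gapdh and its copies, with the most on the pseudogene Gm13394 (16, 29, 19 and 29 reads). Pgk1, which makes the first ATP of the pathway, measured 84.1 and 62.6 CPM in the tips and 92.5 and 66.5 CPM in the ducts. Pgam1, phosphoglycerate mutase, measured 24.4 and 13.2 CPM in the tips and 12.8 and 17.8 CPM in the ducts. For both genes the groups overlapped. Pkm, pyruvate kinase, measured 200.8 and 142.9 CPM in the tips and 145.4 and 112.7 CPM in the ducts, where duct 1 lay just above tip 2.

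Among the 4 genes of lactate handling, 3 lay lower in both tips, also with TMM, beside 11.1% and 18.0% of all genes. Slc16a1 encodes MCT1, a transporter that moves lactate and pyruvate across the cell membrane. It measured 108.5 and 94.7 CPM in the tips and 153.1 and 144.9 CPM in the ducts. The groups did not overlap under the deposited, TMM or median-ratio scaling, and the log2 fold was -0.55 ± 0.28 (limma adjusted p = 0.676) and -0.75 with TMM. Slc16a3, which encodes the lactate exporter MCT4, measured 11.8 and 6.90 CPM in the tips and 13.4 and 16.5 CPM in the ducts (log2 fold -0.66 ± 0.49, limma adjusted p = 0.744). It had 29 tip reads and 46 duct reads. Ldha, the lactate dehydrogenase subunit that dominates in glycolytic tissues, measured 155.7 and 154.4 CPM in the tips and 156.9 and 210.8 CPM in the ducts. Duct 1 was level with the tips, so its place among the genes that were lower in both tips rests on a small gap (log2 fold -0.23 ± 0.28, limma adjusted p = 0.858). Ldhb, the heart-type subunit, measured 8.35 and 18.9 CPM in the tips and 5.15 and 8.60 CPM in the ducts, with tip 1 just below duct 2. Ldhb took 5.08% and 10.9% of the lactate dehydrogenase reads in tip and 3.15% and 3.90% in duct, but on 12 reads in tip 1 and 13 in duct 2 the intervals of those libraries overlapped widely (2.93 to 8.68% and 2.30 to 6.56%).

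**Figure D3:**
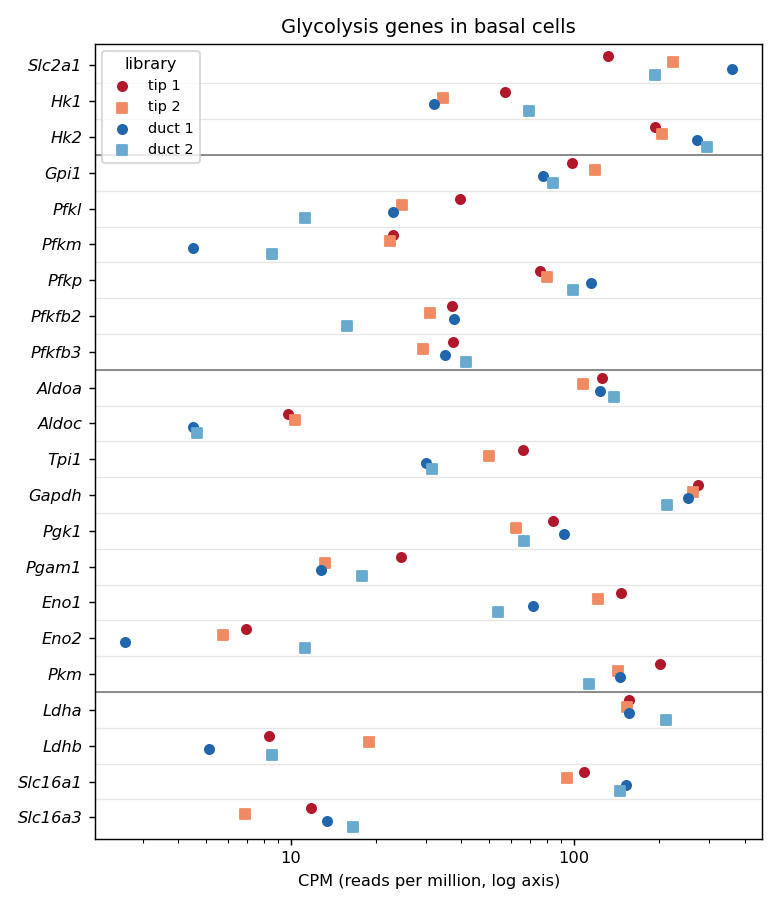
CPM (log axis) of the 22 glycolysis genes in each of the 4 libraries, in pathway order; grey lines divide uptake and phosphorylation, the phosphofructokinase steps, aldolase to pyruvate kinase, and lactate handling. Pfkm (22.9 and 22.4 against 4.50 and 8.60) and Eno1 (146.7 and 121.7 against 71.5 and 54.0) show both tips above both ducts, and Hk2 and Slc16a1 show both below.

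Pyruvate entry into the mitochondrion was covered by 7 genes, of which 4 lay higher in both tips on the deposited scale, 2 with TMM and 1 with median-ratio scaling. Among all genes the shares were 28.5%, 20.4% and 19.1%, so under the other scalings the count was near the background. Pdk2, a kinase that switches off the pyruvate dehydrogenase complex, measured 20.2 and 18.4 CPM in the tips and 8.30 and 7.95 CPM in the ducts. The libraries of a group lay close together and the groups stayed apart under all 3 scalings, with a log2 fold of 1.15 ± 0.44 (limma adjusted p = 0.667). Pdk1, another kinase of the family, measured 94.5 and 52.8 CPM in the tips and 47.9 and 30.4 CPM in the ducts (log2 fold 0.87 ± 0.40, limma adjusted p = 0.667). Tip 1 was far above the rest, and with median-ratio scaling the groups overlapped. Pdk4, a kinase induced by fasting, measured 79.2 and 94.2 CPM in the tips and 158.8 and 61.3 CPM in the ducts. The ducts lay on either side of the tips, at -0.19 ± 0.45 (limma adjusted p = 0.937). Pdk3 measured 28.5 and 20.1 CPM in the tips and 21.1 and 25.7 CPM in the ducts, which overlap. Of the reads on the 4 kinases, Pdk1 took 42.5% and 28.5% in tip and 20.3% and 24.2% in duct, and Pdk2 took 9.06% and 9.91% against 3.51% and 6.32%. Intervals overlapped between groups for both, with 23.8 to 33.6% in tip 2 and 18.7 to 30.8% in duct 2 for Pdk1 and 6.38 to 12.7% in tip 1 and 3.65 to 10.7% in duct 2 for Pdk2.

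Pdha1 and Pdhb encode the subunits of the first enzyme of the pyruvate dehydrogenase complex. Pdha1 measured 102.8 and 101.6 CPM in the tips and 78.5 and 95.5 CPM in the ducts (log2 fold 0.24 ± 0.29, limma adjusted p = 0.856), and with TMM the groups overlapped. Pdhb measured 47.3 and 63.8 CPM in the tips and 49.8 and 33.6 CPM in the ducts. Duct 1 lay between the tips for Pdhb. Pcx, pyruvate carboxylase, which refills the cycle with oxaloacetate, measured 15.3 and 17.8 CPM in the tips and 14.1 and 10.6 CPM in the ducts (log2 fold 0.41 ± 0.44, limma adjusted p = 0.831). The gap between tip 1 and duct 1 was small, and with TMM the groups overlapped.

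Of the 14 genes grouped as cycle enzymes, 10 lay higher in both tips on the deposited scale and 8 with either TMM or median-ratio scaling. Among all genes the shares were 28.5%, 20.4% and 19.1%. The 14 include the cytosolic Mdh1, which is among the 10 and the 8. The groups of its mitochondrial counterpart Mdh2 overlapped. Cs, citrate synthase, which opens the cycle and whose printed window held no HIF core, measured 113.3 and 112.5 CPM in the tips and 84.8 and 65.2 CPM in the ducts. The tips were level and both ducts were below them (log2 fold 0.59 ± 0.29, limma adjusted p = 0.676). Suclg1 encodes the alpha subunit shared by both forms of succinyl-CoA ligase, the step that makes ATP or GTP directly. It measured 36.1 and 31.6 CPM in the tips and 14.1 and 13.8 CPM in the ducts. Its log2 fold of 1.22 ± 0.38 (limma adjusted p = 0.667) was the largest of the TCA genes, from 107 tip and 43 duct reads. Suclg2, the GTP-forming beta subunit, measured 59.1 and 56.2 CPM in the tips and 41.5 and 22.4 CPM in the ducts (log2 fold 0.90 ± 0.38, limma adjusted p = 0.667). Sucla2, the ATP-forming beta subunit, measured 54.2 and 47.1 CPM in the tips and 37.6 and 31.6 CPM in the ducts (log2 fold 0.54 ± 0.33, limma adjusted p = 0.709). All 3 ligase genes kept the tips above the ducts under the 3 scalings, and the shares of the beta subunits overlapped between groups.

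The isocitrate dehydrogenases remove a carbon from isocitrate. Idh2, the NADP-dependent mitochondrial enzyme, measured 48.6 and 42.5 CPM in the tips and 25.6 and 27.7 CPM in the ducts (log2 fold 0.75 ± 0.34, limma adjusted p = 0.667). The NAD-dependent enzyme is built from 3 kinds of subunit. Idh3a, the catalytic subunit, measured 41.7 and 31.6 CPM in the tips and 24.9 and 28.4 CPM in the ducts (log2 fold 0.44 ± 0.36, limma adjusted p = 0.774). Idh3b measured 59.1 and 68.3 CPM in the tips and 39.5 and 38.9 CPM in the ducts (log2 fold 0.68 ± 0.32, limma adjusted p = 0.668). Idh3g measured 68.8 and 59.1 CPM in the tips and 46.0 and 42.9 CPM in the ducts (log2 fold 0.51 ± 0.31, limma adjusted p = 0.706). All 4 genes had both tips above both ducts on the deposited scale, and with TMM the groups of Idh3a overlapped.

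Ogdh, Dlst and Dld encode the oxoglutarate dehydrogenase complex, and Dld also serves the pyruvate dehydrogenase complex. Ogdh measured 177.9 and 150.4 CPM in the tips and 144.8 and 112.0 CPM in the ducts (log2 fold 0.36 ± 0.29, limma adjusted p = 0.759), and its groups overlapped with TMM. Dlst measured 89.0 and 98.2 CPM in the tips and 98.8 and 95.5 CPM in the ducts. On the deposited scale it was the only cycle gene with a negative log2 fold (-0.06 ± 0.28), and with TMM both tips were below both ducts. Dld measured 74.4 and 82.7 CPM in the tips and 74.7 and 59.3 CPM in the ducts, where tip 1 and duct 1 were level.

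The last steps turn fumarate into oxaloacetate. Mdh1, the cytosolic malate dehydrogenase of the malate-aspartate shuttle, measured 66.0 and 54.5 CPM in the tips and 40.2 and 23.1 CPM in the ducts. The groups stayed apart under the 3 scalings (log2 fold 0.95 ± 0.38, limma adjusted p = 0.667). Without duct 1 the log2 fold was 1.34 and without duct 2 it was 0.57, with 0.82 and 1.09 when tip 1 or tip 2 was left out. Mdh2, the mitochondrial enzyme of the cycle, measured 77.8 and 86.1 CPM in the tips and 92.5 and 60.6 CPM in the ducts, with the tips between the ducts (log2 fold 0.13 ± 0.32, limma adjusted p = 0.942, and -0.07 with TMM). Mdh1 took 45.9% and 38.8% of the malate dehydrogenase reads in tip and 30.3% and 27.6% in duct, with intervals that overlapped between tip 2 (32.9 to 45.0%) and duct 1 (24.4 to 36.8%). Fh1, fumarase, measured 36.9 and 18.9 CPM in the tips and 19.1 and 19.8 CPM in the ducts, so that tip 1 alone was high.

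**Figure D4:**
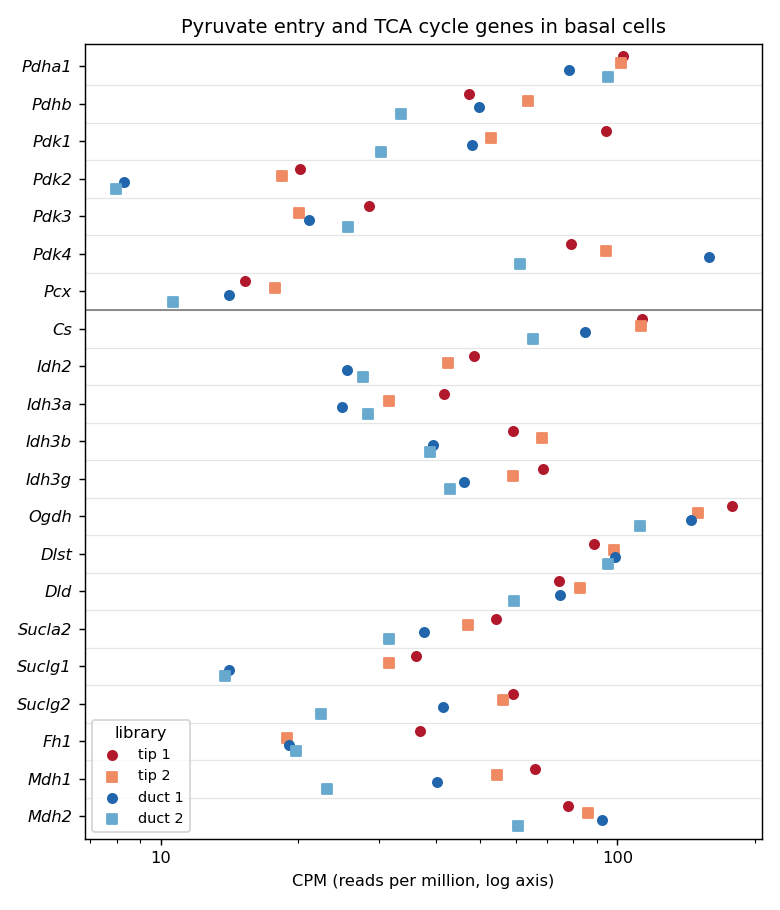
CPM (log axis) of the 21 genes of pyruvate entry (above the grey line) and of the TCA cycle (below it) in each of the 4 libraries. Suclg1 (36.1 and 31.6 against 14.1 and 13.8) and Pdk2 (20.2 and 18.4 against 8.30 and 7.95) show 2 tight groups, while Pdk4, Dlst and Mdh2 overlap.

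Extreme values of the TCA genes gathered in tip 1 and duct 2. Tip 1 was the highest library for 14 of the 21 TCA genes and duct 2 the lowest for 15, and with TMM the numbers were 10 and 12. Of all genes tested, tip 1 was highest for 37.7% and duct 2 lowest for 33.1%, and with TMM for 26.9% and 26.2%. Tip 1 was highest for 7 of the 22 glycolysis genes and duct 2 lowest for 5. Without duct 2, which held the islet transcripts and the highest fibroblast sum, the median log2 fold of the TCA genes was 0.42, and 14 of 21 were above the remaining duct library in both tips and 3 below, beside 45.8% and 28.3% of all genes. Without tip 1 the median was 0.44. The glycolysis median without tip 1 was -0.08.

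**Figure D5:**
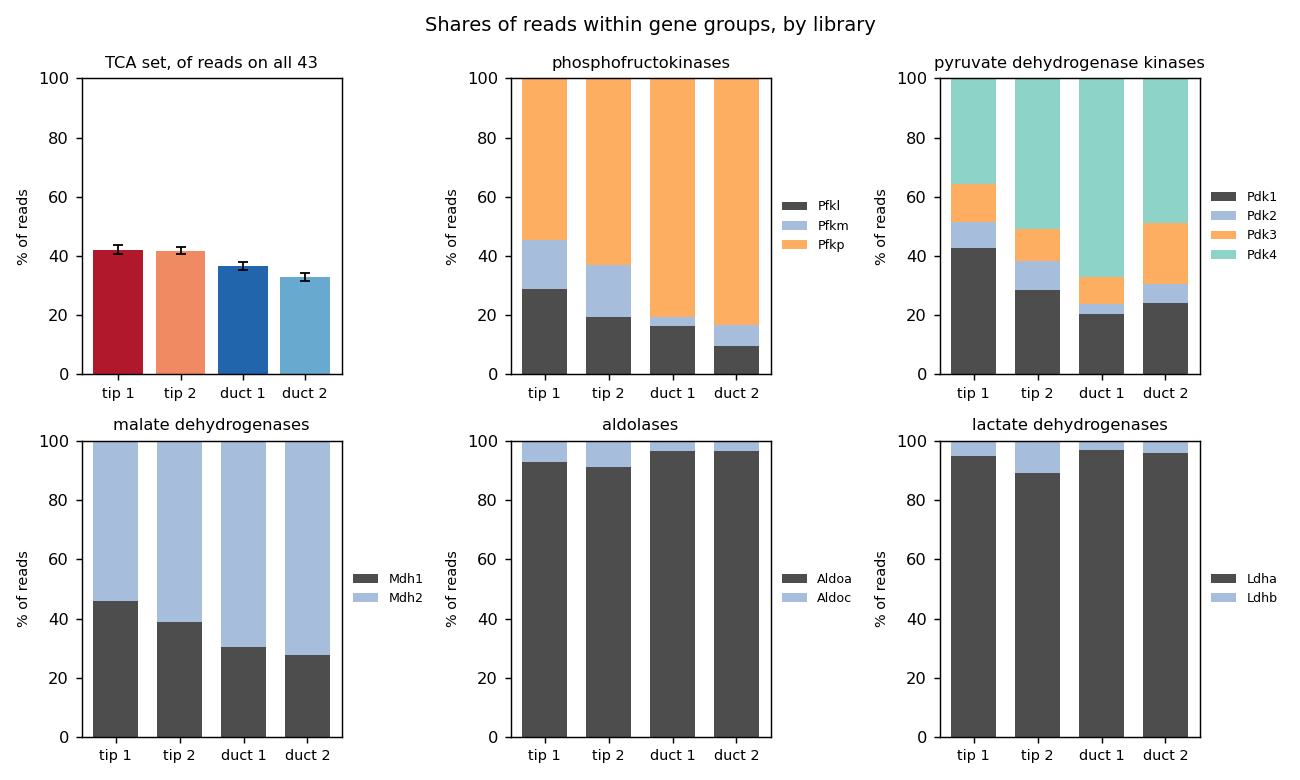
Percent of reads by library. The upper left panel gives the TCA share of the reads on all 43 genes with 95% Wilson intervals (42.1 and 41.8 in tip, 36.5 and 32.9 in duct), and the other panels split the reads of 5 enzyme families among their genes, such as Pfkm at 16.6 and 17.6% of phosphofructokinase reads in tip and 3.14 and 7.22% in duct.

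Levels can be compared between genes only per length of transcript. On mean CPM per kilobase over the 4 libraries, Gapdh was highest (177), followed by Ldha (96.0), Aldoa (81.7), Slc2a1 (69.8) and Pkm (61.9). The highest TCA gene was Mdh2, at 56.3 in tip and 52.6 in duct. The next was Idh3g in tip (48.1, and 33.4 in duct) and Dlst in duct (35.2, and 33.9 in tip). By group, Ldha was at 87.8 CPM per kilobase in tip and 104 in duct, and Aldoa at 76.9 and 86.5, so the order of these neighbours was the same in both groups. Slc2a1 was at 54.4 in tip and 85.2 in duct, and Pkm at 70.7 and 53.1, so the order of their means was reversed. In tip, Eno1 (66.2) and Mdh2 (56.3) lay between them. The libraries of Slc2a1 and of Pkm overlapped between the groups.

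Of the genes named most above, Pfkm lies at chr15:98092589-98132451 (plus strand, 25 merged exon blocks), Eno1 at chr4:150236721-150248879 (plus), Hk2 at chr6:82725025-82774454 (minus) and Slc16a1 at chr3:104638668-104658462 (plus), all on GRCm38. Suclg1 lies at chr6:73248382-73276911 (plus), Pdk2 at chr11:95026258-95041354 (minus), Cs at chr10:128337734-128362479 (plus) and Mdh1 at chr11:21556787-21572367 (minus). Exons of 12 members overlap an exon of a gene on the opposite strand and 3 overlap one on the same strand. The longest such overlaps are Pfkp with Pitrm1 (748 bases), Gpi1 with Gm26762 (741 bases) and Pdha1 with Map3k15 (603 bases) on the opposite strand, and Pfkfb2 with Gm29427 (1262 bases), Pkm with Gm49759 (767 bases) and Pfkm with Gm26513 (341 bases) on the same strand. No source used here says whether the counting used strand, or how reads over exons of both partners were counted. A strand setting would not separate partners on the same strand. The part of such overlaps in the levels of these members therefore cannot be told. Of other related genes, Pgam2, Ldhc, Eno4, Aldoart1, Aldoart2, Gapdhs, Pgk1-rs7, Pgam1-ps2 and Gapdh-ps15 had reads but no more than 3.30 CPM in any library.

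Neighbouring pathways were read through lists of further genes, and 0 genes of any list passed the limma test. Of 31 other genes of pyruvate and TCA metabolism, 14 lay higher in both tips and 1 lower, with a median log2 fold of 0.38, and with TMM 11 and 4. The 14 and 1 are 45.2% and 3.23% of the list, beside 28.5% and 11.1% of all genes. With TMM the 11 and 4 are 35.5% and 12.9%, beside 20.4% and 18.0%. The median of all genes tested was 0.20. Sdhb, the iron-sulfur subunit of succinate dehydrogenase, measured 38.2 and 36.2 CPM in the tips and 15.3 and 11.2 CPM in the ducts. Idh1, the cytosolic isocitrate dehydrogenase, measured 65.3 and 32.1 CPM in the tips and 7.70 and 21.8 CPM in the ducts. Both had the tips above the ducts also with TMM. Pdp1, the phosphatase that switches the pyruvate dehydrogenase complex back on, lay the other way, at 22.9 and 31.0 CPM in the tips and 44.6 and 67.9 CPM in the ducts. The log2 folds of these 3 genes were 1.44 ± 0.39, 1.74 ± 0.57 and -1.02 ± 0.37 (limma adjusted p = 0.667 each). Pdp2, the other phosphatase of the complex, had overlapping groups and a log2 fold of 0.47 ± 0.49 (limma adjusted p = 0.825), on the side of the kinase Pdk2.

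Of 30 other genes of glycolysis and gluconeogenesis, 23 were tested, of which 8 lay higher in both tips and 3 lower (6 and 3 with TMM), with a median log2 fold of 0.67. The 8 are 34.8% of those tested, near the 28.5% of all genes, and 3 of 23 is near their 11.1%. The median of 0.67 (0.48 with TMM) lay above that of the 21 TCA genes (0.44 and 0.24). For all genes tested it was 0.20 and 0.03. Bsg, basigin, the chaperone that brings MCT1 and MCT4 to the membrane, measured 256 and 239 CPM in the tips and 182 and 145 CPM in the ducts, the reverse of its partners Slc16a1 and Slc16a3. Minpp1, an inositol phosphate phosphatase that also acts on bisphosphoglycerate, measured 38.2 and 29.9 CPM in the tips and 19.8 and 13.8 CPM in the ducts. Gpd1l, a glycerol phosphate dehydrogenase-like enzyme, measured 36.1 and 23.6 CPM in the tips and 16.6 and 13.8 CPM in the ducts. All 3 kept the tips above the ducts with TMM.

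In the pentose phosphate pathway, which branches from glycolysis to make NADPH and ribose, 4 of 10 genes lay higher in both tips and 1 lower, also with TMM, beside 28.5% and 11.1% of all genes (20.4% and 18.0% with TMM). Pgls, the lactonase of its oxidative arm, measured 19.5 and 16.6 CPM in the tips and 8.30 and 7.25 CPM in the ducts. Taldo1, transaldolase, measured 35.5 and 31.0 CPM in the tips and 20.4 and 17.8 CPM in the ducts, and Tkt, transketolase, measured 120 and 104 CPM in the tips and 94.4 and 52.8 CPM in the ducts. These genes lay on the same side as Tpi1 and Eno1. The median log2 fold of the list was 0.63, and 0.44 with TMM, also above that of the TCA genes.

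Among 21 genes of the HIF pathway and its targets, 7 lay higher in both tips and 2 lower, and with TMM 3 and 4. The 7 and 2 are 33.3% and 9.52% of the list, near the 28.5% and 11.1% of all genes. With TMM the 3 and 4 are 14.3% and 19.0%, beside 20.4% and 18.0% of all genes. Ndrg1, a stress-responsive HIF target, measured 91.8 and 170 CPM in the tips and 318 and 324 CPM in the ducts. Egln1, the oxygen sensor that marks HIF for destruction, measured 45.9 and 36.8 CPM in the tips and 17.2 and 13.2 CPM in the ducts, and Vhl, the ligase subunit that recognises the mark, measured 22.9 and 20.7 CPM in the tips and 11.5 and 8.60 CPM in the ducts. Log2 folds were -1.35 ± 0.33, 1.39 ± 0.39 and 1.06 ± 0.43 (limma adjusted p = 0.667 each). Of 19 other regulators, 5 lay higher and 3 lower (26.3% and 15.8%, near all genes). With TMM 4 and 4 did (21.1% each, near the 20.4% and 18.0% of all genes). Pprc1, a coactivator of mitochondrial genes, measured 64.7 and 81.5 CPM in the tips and 172 and 153 CPM in the ducts. Prkaa2, a catalytic subunit of AMPK, measured 68.8 and 52.2 CPM in the tips and 44.0 and 15.2 CPM in the ducts, and the growth kinase Mtor 91.8 and 104 CPM in the tips and 64.5 and 63.2 CPM in the ducts.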

How the data were processed

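RNA of sorted basal cells was purified on micro columns and made into libraries with the Ovation SoLo kit, per the labels' protocols. Per the submitters' processing notes, STAR, HTSeq and GRCm38 (mm10) were used. Their versions, the annotation and the strand setting are not given in the sources used. The authors' deposited signal is a count per gene scaled to a library total of 20000000 and rounded up, as read from the values. Whole reads were recovered from it for 100% of values, within 0.1 read, and rescaling gave back at least 99.87% of values exactly. Recovered totals were 1439004 (tip 1), 1742531 (tip 2), 1568194 (duct 1) and 1517982 (duct 2) reads. Each pair of libraries differed beyond sampling noise, with chi-square over its degrees of freedom at 6.88 to 20.8.

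CPM is the deposited value over 20. The 17865 genes that averaged 1 CPM or more entered limma 3.58.1 (R 4.3.3) as log2(CPM + 1), with trended, robustly moderated variances, 2-sided, adjusted by Benjamini-Hochberg over all genes at 0.05. Fold changes are on that log2 scale, which understates changes of low genes. edgeR 4.0.16 (quasi-likelihood), DESeq2 1.42.0 and voom served as alternatives on the recovered reads, beside other scalings, pseudocounts, filters, each library left out and a replicate block. The scripts were tested on simulated data. Shares of reads have 95% Wilson intervals, of which those of the nearest tip and duct libraries are printed, and neither they nor the floors (3 reads) include more than counting error, as reads carry no molecular identifiers in the sources used.

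Lengths per kilobase, positions and near copies (at least 95% identity over at least 200 bases) used GENCODE M21 on GRCm38, and promoters used RefSeq on GRCm38.p6. The members and lists were chosen with earlier results of these data known, so lists are described by counts and medians only. All members are named. From each other list up to 3 genes are named, those with the smallest limma p among genes with at least 5 CPM and groups that do not overlap, and near copies where they have reads, except 1 gene that is not reported here. Luminal cells, which the design mentions, were not analysed here.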

Additional observations from a re-analysis of the deposited data

How the results depend on the processing

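Of 688 recomputed log2 folds of single genes, 649 kept their direction and their side of the threshold, 35 changed sign and 4 passed the threshold. Of 96 recomputed counts and medians, 60 kept within the spread or within 1.5 times. Where a value moved, the cause was not tested. The TCA median log2 fold (0.44) was 0.24 with TMM, 0.21 with median-ratio scaling, 0.26 in DESeq2 and 0.24 in voom, and 0.42 to 0.60 with each library left out. The glycolysis median (0.18) was -0.01 with TMM, -0.04 under median-ratio scaling, -0.08 under quantile scaling, -0.16 in edgeR, -0.19 in DESeq2 and 0.02 in voom, and -0.08 to 0.27 with each library left out. TCA genes above in both tips numbered 14, 9 with median-ratio scaling and 14 to 18 with a library left out. TCA genes below numbered 0, and 1 each with TMM, median-ratio, quantile and reduced-total scaling (without mitochondrial and the 10 most abundant genes), and 0 to 3 with a library left out. Glycolysis genes above numbered 7, 4 with TMM and 4 with median-ratio scaling, and 8 to 11 with a library left out. Those below numbered 5, 8 with median-ratio scaling, 7 with TMM, and 6 to 9 with a library left out. With a library left out, 2 libraries are set against 1, which more genes pass: over all genes 38.3 to 48.1% then lay above and 20.3 to 28.3% below, so those counts do not compare with the full ones. These counts compare library values, so they were not rerun under the pseudocounts, filters, replicate block and count tests. Over all genes limma called 62 higher and 32 lower without the filter on low values, DESeq2 called 2 lower, and with each library left out limma called 0 to 698 higher and 0 to 311 lower (362 and 311 without duct 1, 698 and 206 without duct 2), assuming that the lone library varies like the other group.

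Sign changes by setting were as follows. In DESeq2 they were Gapdh (-0.03), Eno2 (-0.37), Pdha1 (-0.01), Pdk3 (-0.19), Dld (-0.00011) and Mdh2 (-0.13). With TMM they were Eno2 (-0.03), Pdk3 (-0.15) and Mdh2 (-0.07), and in edgeR the same genes (-0.33, -0.16 and -0.09). With median-ratio scaling they were Gapdh (-0.02), Eno2 (-0.06), Pdk3 (-0.19) and Mdh2 (-0.11), with quantile scaling Pgam1 (-0.06), Eno2 (-0.10) and Pdk3 (-0.24), with the reduced total Pdk3 (-0.02), and in voom Pdk3 (-0.16) and Mdh2 (-0.07). Without duct 1 they were Pgk1 (0.12), Eno2 (-0.74), Pdk3 (-0.10) and Pdk4 (0.49), and without duct 2 Hk1 (0.46), Pfkfb2 (-0.15) and Mdh2 (-0.17). Without tip 1 they were Pgam1 (-0.18), Pdk3 (-0.20), Dlst (0.01) and Fh1 (-0.04), and without tip 2 Hk1 (0.27) and Pgk1 (0.10). For these genes, the value farthest on the other side of 0 with a library left out follows. It was -0.63 for Hk1, 1.05 for Pfkfb2, -0.35 for Pgk1, 0.65 for Pgam1 and 1.02 for Eno2. For Pdk3 it was 0.28, for Pdk4 -0.87, for Dlst -0.13, for Fh1 0.89 and for Mdh2 0.43. Gapdh, Pdha1 and Dld, which changed sign in none of those fits, reached 0.33, 0.38 and 0.4. Without duct 1 Eno1 (1.29) and Mdh1 (1.34) passed the threshold, and without duct 2 Slc2a1 (-1.07) and Pfkm (2.11) did. Each passed in 1 of the 4 fits with a library left out. In the same order, the smallest fold in those 4 fits was 0.89, 0.57, -0.17 and 1.3. The fits without duct 1 or duct 2 called many other genes too, as counted above.

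The replicate numbers of tip and duct are shared in the titles, but nothing says that a number marks a shared animal or day. The description fields carry T1 and T3 for the tips and D1 and D2 for the ducts, so the second numbers differ there. Over 17865 genes the difference of replicate 1 minus 2 in tip correlated with that in duct at r = 0.15, across genes, which are not independent. With the replicate number as a block limma called 0 genes (smallest adjusted p = 0.183, and 0.408 among members), and the medians stayed at 0.18 for glycolysis and 0.44 for the TCA genes. At these depths a member with few reads, such as Eno2 with 4 to 17 per library, cannot show a moderate difference.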
